A study of Homo sapiens with 6 samples.

Results

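The 53 genes described here encode proteins of the core spliceosome and of the small nuclear ribonucleoproteins (snRNPs) from which it is built. They were chosen by gene symbol, with the fold changes of FBL knockdown against control already known, so their directions and calls below are a description of that contrast and support nothing beyond it. All 53 matched 1 row each among the 31966 genes of the deposited count table, and all 53 passed the filter on low counts that left 18486 genes for testing. The RNA came from the established human cell line Kasumi-1, grown from an acute myeloid leukaemia with the RUNX1-RUNX1T1 fusion. In 3 samples the cells expressed a doxycycline-inducible hairpin RNA against FBL (FBL knockdown), and in 3 samples a hairpin against luciferase (control). Both groups received 100 ng/ml doxycycline for 72 h, and there was no group without doxycycline. The labels name no hairpin sequence, do not say whether more than 1 hairpin or clone was used, and do not say whether the replicates of a group were separate cultures. The p-values therefore cover only how far these samples differ among themselves, and that spread may be technical.

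FBL encodes fibrillarin, the methyltransferase of box C/D small nucleolar RNPs, which places methyl groups on ribosomal RNA. The spliceosome removes introns from precursor messenger RNA. The U1 snRNP binds the start of an intron, the U2 snRNP binds its branch point, and the joined U4/U6 and U5 snRNPs (the tri-snRNP) then arrive and are remodelled by RNA helicases into the catalytic enzyme. The U1, U2, U4 and U5 RNAs each carry a ring of Sm proteins, whereas U6 carries a ring of LSM proteins, and the complex around PRPF19 joins on activation. FBL itself had 54.0, 32.4 and 44.9 CPM (counts as a share of the scaled library total) in the knockdown libraries, against 580, 550 and 544 CPM in the control libraries. Total counts ran from 85556322 to 95023102 in knockdown and from 88541034 to 103148412 in control libraries, and the first principal component of all tested genes held 60% of the variance. Of the Kasumi-1 markers, 7 of 7 were present, at 2.48 CPM or more in every library, and the 6 markers found for T cells, B cells, red cells, epithelium and fibroblasts summed to 0.499 to 0.618 CPM in knockdown and 0.574 to 0.697 CPM in control libraries. Of these 7 markers, MPO was called lower (log2 fold change -0.42) and CD34 (0.66) and ANPEP (0.60) higher, and their summed level was 5811 to 6876 CPM in knockdown and 7318 to 8845 CPM in control libraries, most of it MPO, without overlap. The part of this in the results below was not tested. The libraries also differed within groups in how strongly GC-rich transcripts were represented, with knockdown replicate 1 and control replicate 2 the richest of their groups and control replicate 1 the poorest of all 6 (log2 difference of GC-rich from GC-poor transcripts against the mean library: 0.23, -0.12 and -0.04 in knockdown, -0.33, 0.37 and -0.10 in control). The part of this difference in the results was not tested. A fit with a GC correction in each library and a fit without knockdown replicate 1 and control replicate 2 give their own counts.

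Core spliceosome genes were mostly lower in FBL knockdown cells. Together they took 0.503%, 0.486% and 0.531% of all counts in the knockdown libraries, against 0.702%, 0.599% and 0.652% in the control libraries, and the 2 sets of values did not overlap. By edgeR's quasi-likelihood test with Benjamini-Hochberg adjustment over all tested genes and a threshold of 0.05, 31 of the 53 were lower, 0 were higher and 22 did not pass. Among all tested genes 16.9% were called lower and 15.7% higher, and among the 7209 tested genes with a mean of at least 10 CPM, a level that 45 of the 53 reach, 27.7% were lower and 16.2% higher. All 3 knockdown libraries lay below all 3 controls for 36 of the 53, against 23.1% of all tested genes. These include SF1, SF3A1, SNRPD1, SNRPD3 and LSM6, which were not called. The 3 knockdown libraries lay above all 3 controls for 3 of the 53, LSM2, LSM4 and SNRPD2, against 4079 of the 18486 tested genes. Among the 7209 genes of at least 10 CPM, the knockdown libraries lay below all 3 controls for 2453 and above for 1552. At an unadjusted p under 0.05, 33 were lower and 2, LSM5 and SNRPD2, were higher. The share of all tested genes at this unadjusted threshold was not counted, so neither count has a background here. DESeq2 called those same 2 members higher after adjustment, beside 2813 of 19570 genes. The median log2 fold change of the 53 was -0.46, against -0.01 for all tested genes and -0.06 for those of at least 10 CPM, and single values ran from -1.32 to 0.32. With a correction for GC content in each library, 35 of the 53 were lower and 3 higher, beside 3932 and 4767 of 18486 genes. Without knockdown replicate 1 and control replicate 2, 36 were lower and 1 higher, beside 3627 and 3787 of 18647 genes. A fall of at least 2-fold was fitted for 6 genes and one of at least 1.5-fold for 17. The shares of all tested genes with such falls were not counted. In RNA from whole cultures, fewer cells that express a gene and less of its RNA per cell cannot be told apart.

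The genes with the largest falls and the gene with the smallest change were SART1, SF3B3, SNRNP200 and LSM3. The promoters of 3 of them are shown because SART1 and SNRNP200 stand at one end of the range of changes and LSM3 is the gene nearest to no change. RefSeq's GRCh38.p14 promoter table, which spans 250 bases before to 50 bases after each annotated start, holds 48 of the 53 genes, and SF3B3 has no entry in it. Capitals mark exact matches on either strand to any of 5 motifs: the ETS core CCGGAAG, the NRF1 core CGCATGCG, the E-box CACGTG, the CCAAT box CCAAT and the YY1 core AAGATGG. An ETS core can share its last 3 letters with a YY1 core. The windows are chr11:65961484-65961783 on the plus strand for SART1, chr2:96305497-96305796 on the minus strand for SNRNP200 and chr3:14178567-14178866 on the plus strand for LSM3.
SART1: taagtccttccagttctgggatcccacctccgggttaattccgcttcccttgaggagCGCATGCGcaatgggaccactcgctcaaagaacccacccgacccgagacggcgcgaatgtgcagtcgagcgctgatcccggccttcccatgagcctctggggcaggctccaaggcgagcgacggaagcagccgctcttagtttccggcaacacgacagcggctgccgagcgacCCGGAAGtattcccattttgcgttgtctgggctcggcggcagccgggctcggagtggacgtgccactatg
SNRNP200: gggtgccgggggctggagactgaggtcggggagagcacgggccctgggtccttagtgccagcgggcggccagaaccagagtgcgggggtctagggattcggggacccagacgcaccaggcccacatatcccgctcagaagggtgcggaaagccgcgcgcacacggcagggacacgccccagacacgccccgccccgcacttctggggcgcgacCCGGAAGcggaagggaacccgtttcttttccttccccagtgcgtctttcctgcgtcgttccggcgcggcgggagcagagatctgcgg
LSM3: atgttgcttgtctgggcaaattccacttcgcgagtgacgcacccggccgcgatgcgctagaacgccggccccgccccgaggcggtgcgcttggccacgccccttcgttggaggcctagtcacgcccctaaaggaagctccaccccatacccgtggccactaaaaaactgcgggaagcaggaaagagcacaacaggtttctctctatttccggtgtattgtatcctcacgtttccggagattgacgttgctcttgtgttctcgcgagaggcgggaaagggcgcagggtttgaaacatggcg
SART1 has an NRF1 core and an ETS core, SNRNP200 has an ETS core, and none of the 5 motifs is in the LSM3 window. The ETS core, the letters read by the ETS family of transcription factors, was in 25 of the 48 promoters (52.1%), against 21.4% of the promoters of 11040 tested genes and 12.2% of all 27305 promoters. It was in 17 of the 28 promoters of genes called lower and in 8 of the 20 of genes that did not pass, LSM5 and SNRPD2 among them. Within the 150 bases that end 50 bases after the start it was in 20 of 48 (41.7%), against 16.2% of tested genes. The CCAAT box was in 41.7% of the 48 promoters and in 42% of those of tested genes, the E-box in 4.17% and 12.4%, the NRF1 core in 6.25% and 4.55%, and the YY1 core in 14.6% and 9.33%. The median GC content was 61.2% for the 48 promoters and 64.7% for those of tested genes. A match is only a run of letters, and binding was not measured.

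The genes of the U1 snRNP, which recognises the 5' splice site, were all called lower. SNRNP70, which binds the first stem-loop of U1 RNA, had 93.1, 85.0 and 80.1 CPM in knockdown libraries and 135, 138 and 130 CPM in control libraries. It fell by 0.64 ± 0.08 on the log2 scale (SE, as throughout for log2 fold changes), and each knockdown library lay below each control. SNRPA, which binds the second stem-loop, fell by 0.53 ± 0.08, and SNRPC, which steadies the pairing with the 5' splice site, fell by 0.52 ± 0.09. The intervals of 1 SE around SNRNP70, SNRPA and SNRPC overlapped.

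The Sm ring, which is common to the U1, U2, U4 and U5 snRNPs, was mixed. Of its 7 genes, SNRPB, SNRPF and SNRPE were called lower, and the median log2 fold change was -0.17. SNRPB had 405, 375 and 411 CPM in knockdown libraries, against 478, 617 and 558 CPM in control libraries, with a log2 fold change of -0.47 ± 0.10 and no overlap of the groups. SNRPF fell by 0.46 ± 0.08 and SNRPE by 0.30 ± 0.08. The call on SNRPE was lost without knockdown replicate 1 (adjusted p = 0.0598 by edgeR), without knockdown replicate 3 (adjusted p = 0.0869) and without control replicate 3 (adjusted p = 0.0736). SNRPD1, SNRPD3 and SNRPG had log2 fold changes of -0.15, -0.17 and -0.17 and did not pass. SNRPD2, which pairs with SNRPD1 before the ring closes, had 298, 301 and 301 CPM in knockdown libraries, against 267, 240 and 265 CPM in control libraries. Its log2 fold change of 0.22 ± 0.08 narrowly missed the threshold (adjusted p = 0.0524 by edgeR), although every knockdown library stood above every control. SNRPE, SNRPG and SNRPF have near-identical processed copies elsewhere in the genome whose counts came to 42.7%, 19.8% and 7.17% of the gene's own count. Summed with their copies, the log2 ratios were -0.299 for SNRPE, -0.151 for SNRPG and -0.469 for SNRPF, close to the values of the genes alone. SNRPD3 shares 12.6% of its exon bases with GUCD1 on the other strand, whose mean count was 27771 against 3235 for SNRPD3.

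The U2 snRNP carries the SF3A and SF3B complexes, which hold the branch point helix, and 7 of its 11 genes were called lower, with a median of -0.56. SF3B3, the large propeller protein of SF3B, had 51.9, 50.8 and 54.2 CPM in knockdown libraries, against 150.0, 92.3 and 109.65 CPM in control libraries. SF3B2, which docks on SF3B4, had 167, 142 and 149 CPM in knockdown libraries, against 311, 247 and 259 CPM in control libraries. The groups did not overlap for either gene, and the falls on the log2 scale were 1.17 ± 0.15 for SF3B3 and 0.83 ± 0.11 for SF3B2. Control replicate 1 was the highest library for both, and without it the SF3B3 value was -0.96. SF3A3 fell by 0.76 ± 0.13, SF3B4 by 0.75 ± 0.08, SNRPB2 by 0.59 ± 0.12, SF3A2 by 0.56 ± 0.12 and SNRPA1 by 0.54 ± 0.11. SNRPA1 and SNRPB2 are the paired proteins that bind the U2 RNA itself. The SF3A2 call was lost without knockdown replicate 3 (edgeR, adjusted p = 0.0532, log2 fold change -0.51). SF3A2 shares 12.7% of its exon bases with PLEKHJ1 on the other strand, whose mean count was 14634 against 6877.5 for SF3A2.

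SF3B1, the scaffold of SF3B that cradles the branch point and is recurrently mutated in myeloid neoplasms, did not pass the threshold. It had 7.40, 9.23 and 9.92 CPM in knockdown libraries and 11.9, 7.33 and 10.6 CPM in control libraries, and the groups overlapped. Its log2 fold change was -0.17 ± 0.17, with an adjusted p of 0.489 by edgeR, and ran from -0.35 to -0.03 over the 16 alternative settings. The lower end, without control replicate 2, passed the threshold (edgeR, adjusted p = 0.031). SF3B6, which contacts the branch point adenosine, had 110, 137 and 137 CPM in knockdown libraries, against 137, 103 and 140 CPM in control libraries, with a log2 fold change of 0.02 ± 0.13. SF3B5, a small partner of SF3B3, and SF3A1, the SF3A subunit that meets U1, had log2 fold changes of -0.25 ± 0.10 and -0.17 and did not pass. Differences between subunits were not tested.

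Of the 3 proteins that first read the branch point and the 3' splice site, U2AF1 and U2AF2 were called lower and SF1 was not. U2AF1, which reads the AG at the intron's end and is another gene recurrently mutated in myeloid neoplasms, had 43.9, 37.0 and 37.9 CPM in knockdown libraries, against 92.5, 88.2 and 82.0 CPM in control libraries. That is a fall of 1.15 ± 0.09 on the log2 scale, or 2.21-fold, with no overlap, and it had the smallest adjusted p of the 53 genes (3.14e-05 by edgeR with Benjamini-Hochberg adjustment). The build holds a near-identical copy, U2AF1L5, also on chromosome 21 (6484623 to 6499261, minus strand), which took slightly more reads than U2AF1 (43092956 to 43107587, minus strand). U2AF1L5 had 46.2, 41.3 and 40.9 CPM in knockdown libraries, against 98.4, 95.1 and 89.1 CPM in control libraries. The sum of both rows was 90.1, 78.3 and 78.7 CPM in knockdown libraries, against 191, 183 and 171 CPM in control libraries, a log2 ratio of -1.14. How reads were divided between the copies is therefore uncertain, while the direction is that of both rows and of their sum. U2AF2, which binds the polypyrimidine tract, fell by 0.39 ± 0.09, a call lost without knockdown replicate 3 (edgeR, adjusted p = 0.0805, log2 fold change -0.34). SF1, the first binder of the branch point, had a log2 fold change of -0.11 and did not pass.

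**Figure D1:**
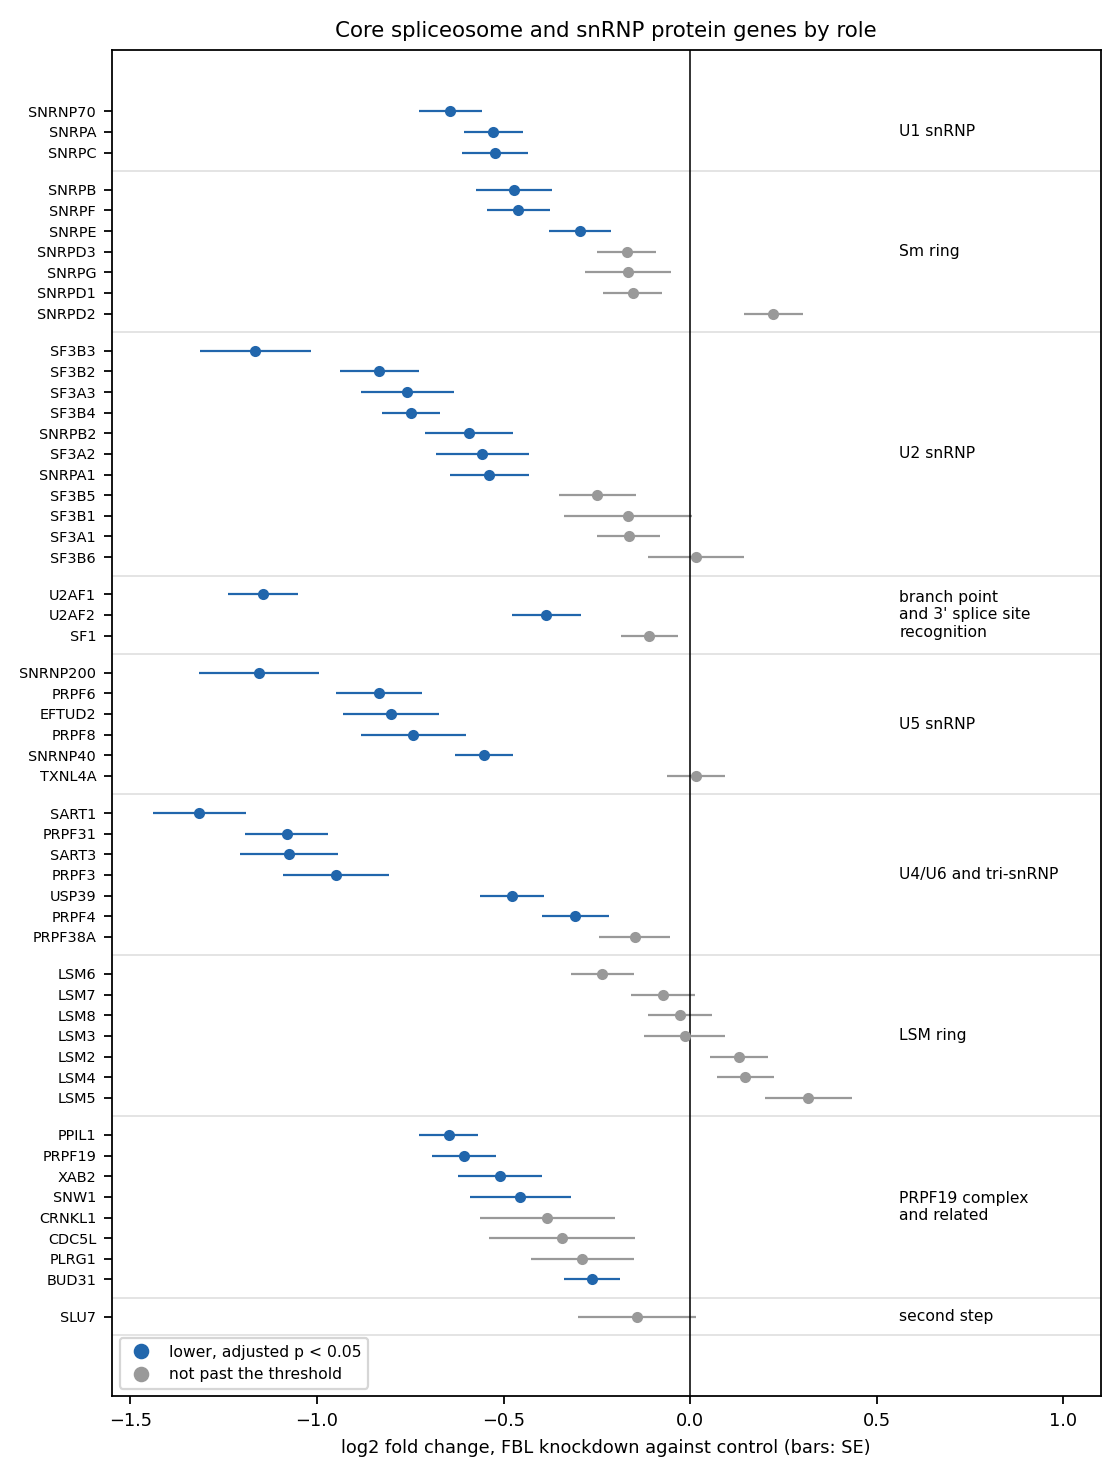
Log2 fold change of FBL knockdown against control for each of the 53 genes, by role, with SE bars and colour for the call. The tri-snRNP, U5 and U1 genes lie left of 0 almost throughout, whereas the LSM genes straddle 0, up to 0.32 for LSM5.

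The U5 snRNP forms the catalytic heart of the tri-snRNP, and 5 of its 6 genes were called lower, with a median of -0.77. SNRNP200, the helicase that unwinds U4 from U6, had 33.3, 33.6 and 35.0 CPM in knockdown libraries, against 100.45, 60.5 and 66.2 CPM in control libraries. PRPF8, the largest spliceosomal protein and the scaffold of the active site, had 97.3, 91.3 and 104 CPM in knockdown libraries, against 207, 137 and 146 CPM in control libraries. For both genes control replicate 1 stood well above the other controls, and the knockdown libraries were close together below all of them. The log2 fold changes were -1.16 ± 0.16 for SNRNP200 and -0.74 ± 0.14 for PRPF8, and -0.90 and -0.54 without control replicate 1, with both calls kept. EFTUD2, the GTPase of U5, had 102, 99.2 and 108 CPM in knockdown libraries, against 218, 146 and 176 CPM in control libraries, a fall of 0.80 ± 0.13. PRPF6, which bridges U5 and U4/U6, had 39.3, 36.5 and 35.5 CPM in knockdown libraries, against 77.2, 55.7 and 65.6 CPM in control libraries, a fall of 0.83 ± 0.12. Again the groups did not overlap and control replicate 1 was the highest library. SNRNP40, a propeller protein of U5, fell by 0.55 ± 0.08. TXNL4A, the small thioredoxin-fold subunit, did not pass, with 56.6, 56.0 and 53.7 CPM in knockdown libraries and 52.2, 55.7 and 56.6 CPM in control libraries. Its log2 fold change was 0.02 ± 0.08 and its groups overlapped.

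Genes of the U4/U6 snRNP and of tri-snRNP assembly had the lowest median of any role, -0.95, and 6 of 7 were called lower. SART1, which tethers U4/U6 to U5 and lies at chromosome 11, 65961689 to 65979828 on the plus strand, had 26.7, 19.2 and 23.1 CPM in knockdown libraries, against 63.8, 55.7 and 52.4 CPM in control libraries. This was the largest fall of the 53 genes, 1.32 ± 0.12 on the log2 scale or 2.49-fold (edgeR with Benjamini-Hochberg adjustment, adjusted p = 5.6e-05), and the highest knockdown library was far below the lowest control. SART3, which reanneals U4 with U6 after each round, had 9.58, 9.66 and 9.00 CPM in knockdown libraries, against 24.4, 17.3 and 17.9 CPM in control libraries. Its fall was 1.08 ± 0.13, with tightly grouped knockdown libraries. PRPF31, a U4 binding protein in which mutations cause retinitis pigmentosa, had 35.5, 26.3 and 30.0 CPM in knockdown libraries, against 63.4, 68.9 and 62.0 CPM in control libraries. Its fall was 1.08 ± 0.11 without overlap, and 22% of its annotated exon bases overlap an antisense gene, whose reads cannot be told apart from its own if strand was not used in counting. In all, 21 of the 53 genes overlap exons of a gene on the other strand. PRPF3, another retinitis pigmentosa gene and a partner of PRPF4, had 5.92, 6.13 and 6.45 CPM in knockdown libraries, against 14.4, 9.59 and 11.7 CPM in control libraries, a fall of 0.95 ± 0.14.

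PRPF4 itself fell by 0.31 ± 0.09, a call that depended on single libraries. It was lost without knockdown replicate 2 (adjusted p = 0.0866 by edgeR), knockdown replicate 3 (0.103), control replicate 1 (0.0629) or control replicate 3 (0.0503). USP39, which is needed for tri-snRNP entry, fell by 0.48 ± 0.09. PRPF38A, which joins when the spliceosome is about to be activated, had a log2 fold change of -0.15 and did not pass.

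**Figure D2:**
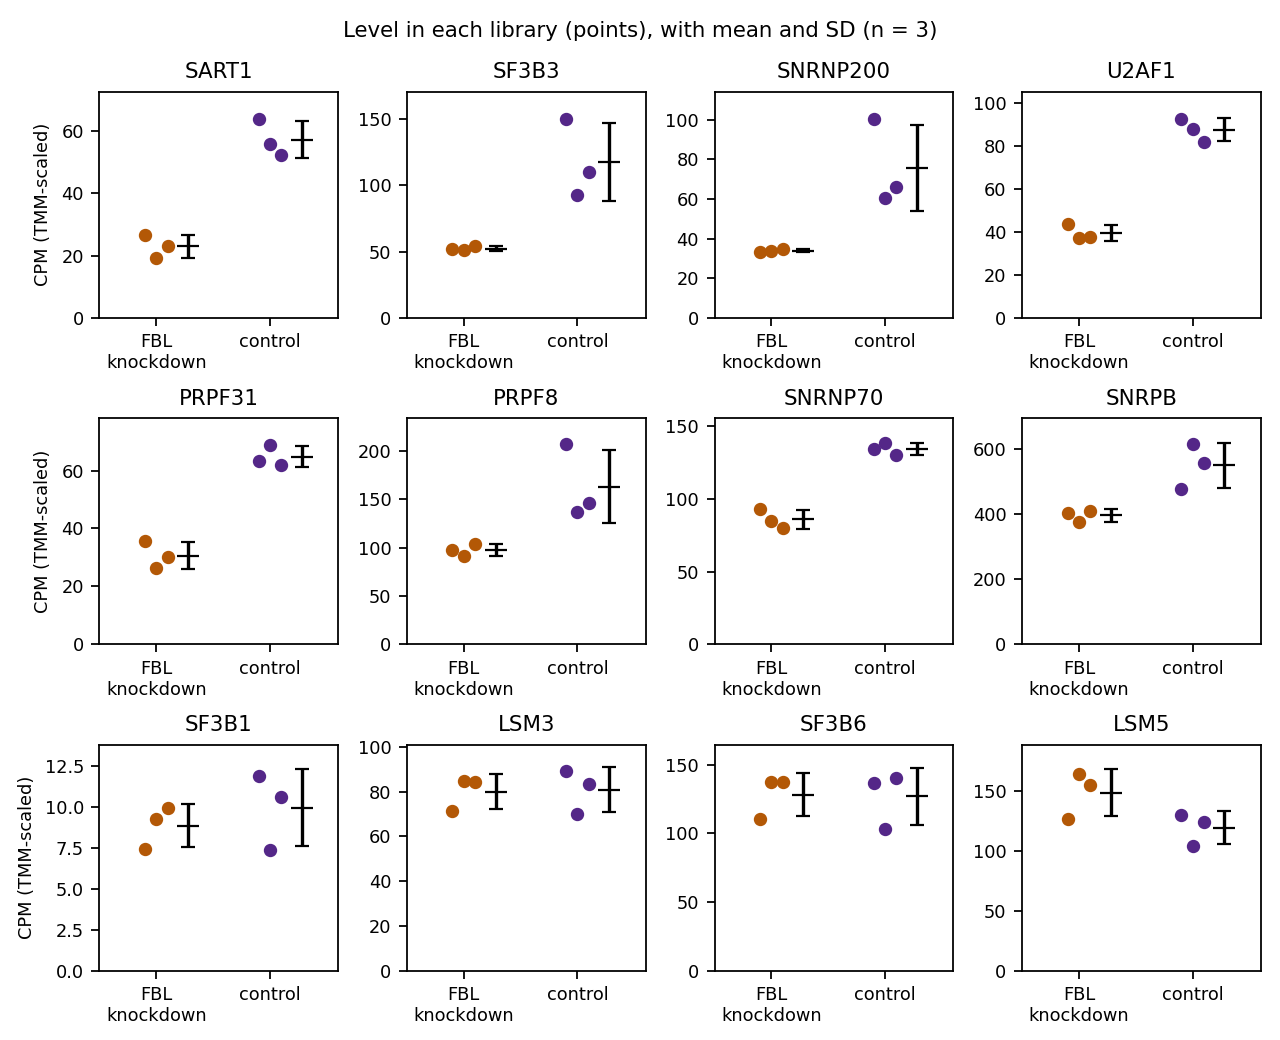
CPM in each library (points) with the mean and SD (n = 3) for 12 genes, knockdown at the left and control at the right of each panel, on axes that start at 0. SART1, U2AF1 and PRPF31 show wide gaps between groups, SF3B3, SNRNP200 and PRPF8 show 1 control library well above the others, and SF3B1, LSM3, SF3B6 and LSM5 overlap.

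The LSM ring of the U6 snRNP, which also takes part in decay of messenger RNA when LSM1 replaces LSM8, had 0 of 7 genes called in either direction by edgeR, and a median log2 fold change of -0.01. At an unadjusted p under 0.05, LSM5 was higher and LSM6 was lower. LSM3 had 71.1, 84.5 and 84.5 CPM in knockdown libraries, against 89.2, 69.8 and 83.5 CPM in control libraries, with a log2 fold change of -0.01 ± 0.11. LSM5 had 126, 164 and 155 CPM in knockdown libraries, against 130, 104 and 124 CPM in control libraries, with a log2 fold change of 0.32 ± 0.12. The LSM5 groups overlapped through knockdown replicate 1, and its adjusted p of 0.0591 by edgeR was over the threshold. In 9 of the 16 alternative settings LSM5 was called higher, by DESeq2 with an adjusted p of 0.0355 and without knockdown replicate 1 with an adjusted p of 0.018 and a log2 fold change of 0.42. LSM2 and LSM4 had log2 fold changes of 0.13 and 0.15, and LSM6 one of -0.24 ± 0.08 (adjusted p = 0.0527 by edgeR). LSM7 and LSM8 lay at -0.07 and -0.03.

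The PRPF19 complex and its neighbours bind as the spliceosome is activated, and 5 of 8 were called lower, with a median of -0.42. PPIL1, a prolyl isomerase, had 17.1, 17.4 and 18.1 CPM in knockdown libraries, against 27.4, 27.5 and 27.5 CPM in control libraries, a fall of 0.65 ± 0.08 with very little spread in either group. PRPF19, the ubiquitin ligase at the centre of the complex, fell by 0.61 ± 0.09, and XAB2, a helical repeat scaffold, by 0.51 ± 0.11. The XAB2 call was lost without knockdown replicate 3 (edgeR, adjusted p = 0.0502). SNW1 and BUD31, both near the catalytic RNA, fell by 0.45 ± 0.14 and 0.26 ± 0.08. The SNW1 call was lost without any single library other than control replicate 2, with adjusted p values from edgeR of 0.0612 to 0.0956. The BUD31 call was lost without knockdown replicate 2, knockdown replicate 3 or control replicate 3, with adjusted p values of 0.0625, 0.122 and 0.0645. BUD31 shares 38.7% of its exon bases with PTCD1 on the other strand, and SNW1 shares 4.85% with SLIRP, whose mean count was 6727 against 513 for SNW1. The count for this role was 3 of 8 without knockdown replicate 2 or control replicate 3, 2 of 8 without knockdown replicate 3, and 8 of 8 without control replicate 2. CRNKL1, CDC5L and PLRG1 had log2 fold changes of -0.38 ± 0.18, -0.34 ± 0.20 and -0.29 ± 0.14, did not pass, and were among the least abundant of the 53. SLU7, which acts at the second catalytic step, had 2.26, 2.33 and 2.56 CPM in knockdown libraries and 2.90, 2.05 and 2.95 CPM in control libraries, with a log2 fold change of -0.14 ± 0.16 and overlapping groups.

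Levels between genes were compared per length, on the deposited RPKM values, and not by CPM. SF3B5 was the most abundant, with a mean of 458 ± 60.1 RPKM in knockdown and 546 ± 46.0 RPKM in control libraries (SD, n = 3 each). SNRPB was next, with 310 ± 17.3 RPKM in knockdown and 432 ± 56.3 RPKM in control libraries, and SNRPG stood at rank 5 in knockdown and rank 3 in control libraries, at 159.5 ± 9.06 RPKM in knockdown and 179.8 ± 27.5 RPKM in control libraries. SF3B5 and SNRPB were set apart from each other, and SNRPB from SNRPG, by more than the sum of their control SDs. CRNKL1 was the least abundant, with 0.237 ± 0.0182 RPKM in knockdown and 0.310 ± 0.0606 RPKM in control libraries. SF3B1 stood at rank 49 in both groups, at 0.962 ± 0.13 RPKM in knockdown and 1.09 ± 0.253 RPKM in control libraries. Its SF3B partner SF3B3 stood at 4.20 ± 0.143 RPKM in knockdown and 9.46 ± 2.35 RPKM in control libraries. The control median was 19.5 RPKM, 9 genes were at 100 RPKM or more and 4 were under 1 RPKM. In the order of control levels, 37 of the 52 neighbouring pairs differed by no more than the sum of their SDs, so most neighbours in that order are not separated. The order was nearly the same in both groups (Spearman's rho 0.982 over 53 genes, which share their libraries), and the largest shift was that of LSM5, which stood at rank 15 in knockdown and rank 22 in control libraries. The RPKM values rest on 1 deposited length per gene, so a gene whose listed length exceeds that of its used transcripts has a low RPKM.

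Genes with a short coding sequence had smaller differences between groups. The log2 fold change was lower the longer the longest annotated coding sequence, over the 53 genes (Spearman's rho -0.589, Pearson's r -0.612 on log2 length, across genes that share libraries and are not independent replicates). Across 6397 protein-coding genes with a mean of at least 10 CPM the same measures were -0.174 and -0.165. In the 17 shortest genes, of 240 to 498 coding bases, 4 were called lower and the median log2 fold change was -0.15, beside 13.5% lower and a median of 0.06 in 571 genes of the same lengths and at least 10 CPM. In the 18 of middle length, 540 to 1566 bases, 15 were lower with a median of -0.55 (27.6% and -0.06 in 3312 genes). In the 18 longest, 1695 to 7005 bases, 12 were lower with a median of -0.63 (35.5% and -0.15 in 2005 genes). The shortest class holds 6 of the 7 LSM genes and 6 of the 7 Sm genes, so length and membership of these rings cannot be told apart within the 53. The other LSM gene, LSM4, is in the middle class at 715 bases. That is not a whole number of codons, so the annotated sequence may be incomplete and the class of LSM4 is uncertain. U2AF1, at 720 coding bases, and SF3B1 and SF1, with long coding sequences, stand off the trend. The log2 fold change was less related to control level (Spearman's rho 0.20), to GC content (-0.26) and to the length column (-0.27). Over the settings tried, rho with coding length ran from -0.66 to -0.512.

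**Figure D3:**
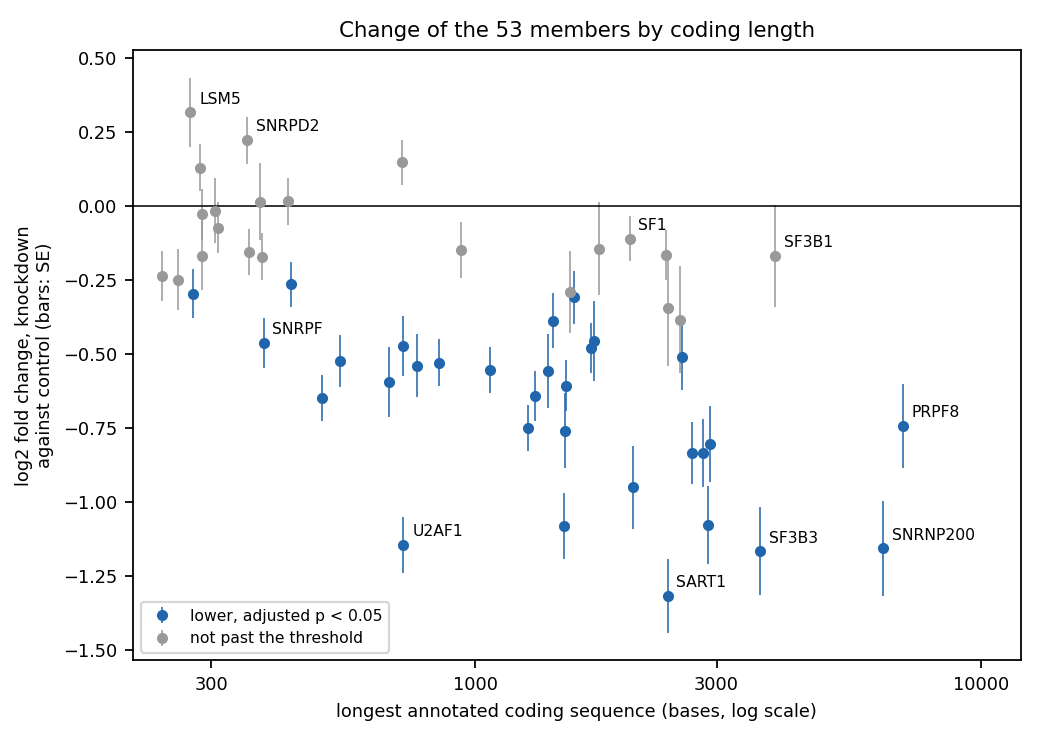
Log2 fold change of FBL knockdown against control, with SE bars, by longest annotated coding sequence in bases on a log scale for the 53 genes. Among the 17 shortest genes, with a median of -0.15, LSM5 and SNRPD2 lie above 0 and SNRPF lies at -0.46. SNRNP200, SF3B3 and SART1 lie below -1, with SF3B1 as a long gene near 0.

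Other splicing genes, from 9 lists of proteins outside the 53, were also more often lower than higher. Of 103 listed genes 101 were found, and 44 were called lower and 6 higher, with a median log2 fold change of -0.30, beside 16.9% lower and 15.7% higher among all tested genes. The same shares stand beside each list's count. The 5 genes of the exon junction complex, which marks spliced junctions, were all lower, with EIF4A3, its RNA clamp, at -1.12 ± 0.13, MAGOH at -0.70 and CASC3 at -0.66. Its smallest member by change, RBM8A, missed the threshold without knockdown replicate 3 (edgeR, adjusted p = 0.0737) or control replicate 3 (0.0547). Of 9 helicases that drive splicing, 6 were lower, with DHX38, which remodels the complex before exons are joined, at -1.14 ± 0.13, DDX23 at -0.85 and DDX42 at -0.81. Every gene of both lists had a log2 fold change below 0, against 9352 of the 18486 tested genes. The helicase nearest to 0, DDX39B, was at -0.01 ± 0.14 with overlapping groups, which is no measurable change. Of 23 accessory proteins of the activated and catalytic complexes, 10 were lower, with CTNNBL1, a partner of the PRPF19 complex, at -1.03 ± 0.11, CACTIN at -0.87 and RNF113A at -0.77, and 1, CWC15, was higher at 0.43 ± 0.10. Of 15 auxiliary factors of U1 and U2, 6 were lower, with LUC7L at -0.75 ± 0.09, PHF5A at -0.49 and PUF60 at -0.49, and 1, CHERP, was higher at 0.28. PHF5A is itself a subunit of SF3B, and it was lower, as SF3B3 and SF3B2 were. The count for the activated and catalytic complexes was 6 of 23 without knockdown replicate 3, and that for U1 and U2 auxiliary factors was 10 of 15 without control replicate 2. Calls were also lost among the 6 lower auxiliary factors. LUC7L2 (-0.46) and SMNDC1 (-0.37) missed the threshold without knockdown replicate 3, and SMNDC1 also without knockdown replicate 2. By edgeR, CWC15 missed the threshold without knockdown replicate 2 (adjusted p = 0.0519) or control replicate 3 (0.0516), and CHERP without knockdown replicate 1 (0.0574), knockdown replicate 3 (0.0525), control replicate 1 (0.0544) or control replicate 3 (0.0897).

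Of 11 accessory proteins of the tri-snRNP and the stage before activation, 5 were lower, with MFAP1 at -1.31 ± 0.28, PPIH at -0.67 and SMU1 at -0.54. MFAP1 averaged 1.77 CPM over the 6 libraries, so its value rests on few reads. Of the assembly factors, 6 of 13 were lower in the SMN and Sm assembly list (GEMIN5 at -0.74 ± 0.13, PRMT5 at -0.45 and GEMIN4 at -0.41) and 4 of 9 in the list for maturation and transport of small nuclear RNAs (TGS1 at -0.59, NCBP1 at -0.46 and NCBP2 at -0.36). GEMIN5 recognises small nuclear RNAs for the SMN complex, PRMT5 methylates Sm proteins and TGS1 makes the cap of these RNAs. Of the 10 genes in the minor spliceosome list, 2 were lower, PDCD7 at -0.80 ± 0.09 and SNRNP35 at -0.44. TXNL4B at 0.33 and ZCRB1 at 0.30 were higher, and 6 did not pass. These counts are near the shares of all tested genes, 16.9% lower and 15.7% higher, and the list's median was -0.03. Among 6 Sm and LSM paralogues outside the core, 0 were lower and 2 were higher, LSM12 at 0.42 ± 0.10 and LSM10, a subunit of the U7 ring for histone messages, at 0.36 ± 0.08. Several of these calls rested on single libraries in edgeR's test. Without control replicate 3 the adjusted p was 0.0553 for LSM12, 0.0545 for SMU1, 0.0582 for TGS1, 0.109 for NCBP1, 0.094 for TXNL4B and 0.0795 for ZCRB1, and without knockdown replicate 3 it was 0.0793 for SNRNP35, 0.116 for NCBP1, 0.0651 for TXNL4B, 0.0873 for ZCRB1 and 0.0517 for TGS1. Without knockdown replicate 2 it was 0.0533 for SNRNP35, 0.0615 for SMU1, 0.102 for NCBP1, 0.117 for TXNL4B and 0.123 for ZCRB1. TXNL4B also missed without control replicate 2 (0.0548), SMU1 and TGS1 without knockdown replicate 1 (0.0544 and 0.0508), ZCRB1 without control replicate 1 (0.0686), and NCBP1 without either of these (0.081 and 0.0885). The tri-snRNP count was then 3 of 11 without knockdown replicate 2, knockdown replicate 3 or control replicate 3. The RNA maturation count was 2 of 9 without knockdown replicate 1 or 2 and 1 of 9 without knockdown replicate 3 or control replicate 3. The minor spliceosome had 1 lower gene without knockdown replicate 2 or 3. SMN1, at -0.36 and among the 6 lower genes of the SMN list, missed the threshold without any 1 knockdown replicate or without control replicate 3. SMN2, in the same list, was at -0.23 ± 0.13 and did not pass (adjusted p = 0.197 by edgeR). The interval of 1 SE around it overlapped that of SMN1, -0.36 ± 0.10. The difference between SMN1 and SMN2 was not tested, and how reads were divided between them was not examined.

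**Figure D4:**
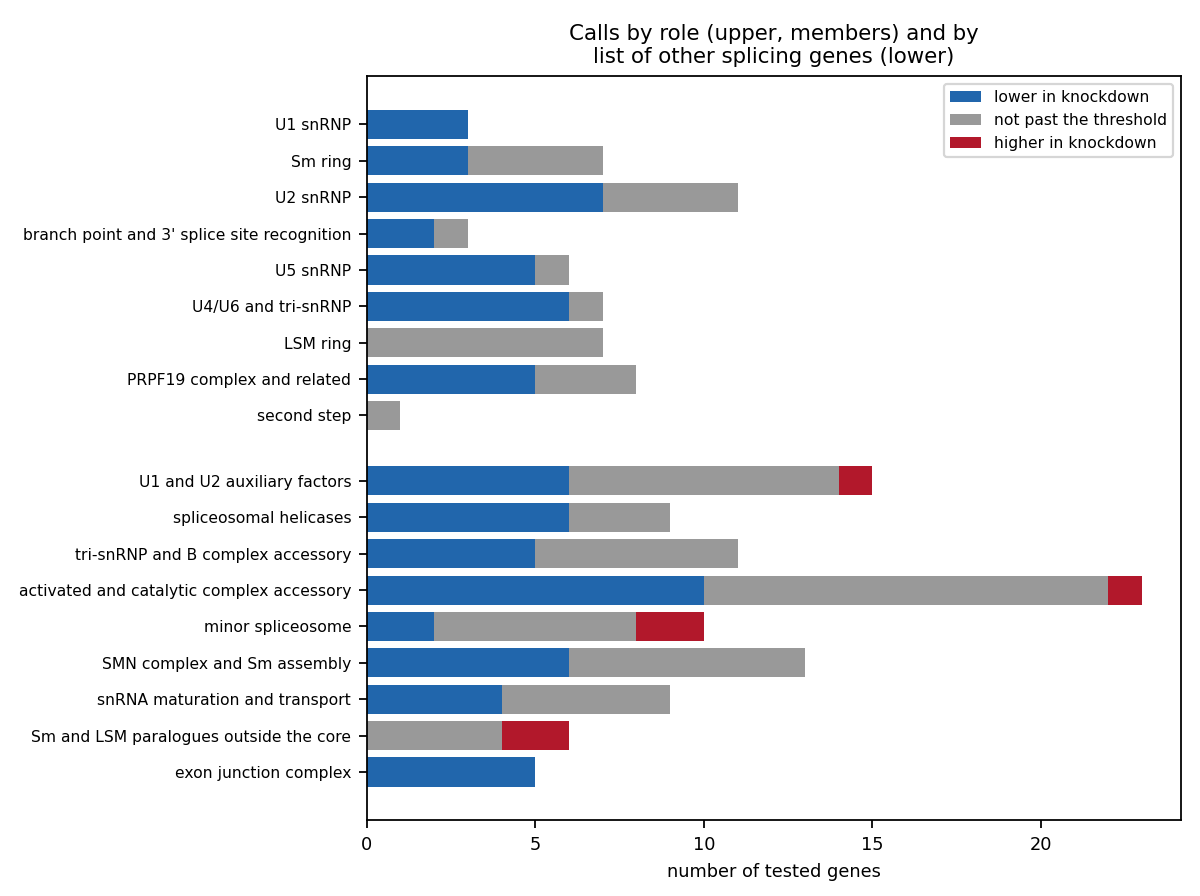
Number of tested genes called lower, not past the threshold and called higher in FBL knockdown, for the 9 roles of the 53 genes (upper bars) and the 9 lists of other splicing genes (lower bars). The exon junction complex was lower in 5 of 5 genes and the LSM ring in 0 of 7.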

How the data were processed

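Messenger RNA libraries of 3 FBL knockdown and 3 control samples were prepared from total RNA (NEBNext Ultra), per the labels' protocols. The authors deposited whole-number counts per Ensembl gene, with a gene length in bases, and a table of RPKM values. Tools in the submitters' processing notes are featureCounts, HISAT2, edgeR and cutadapt 1.18, with the build GRCh38. The sources used here state neither annotation release nor strand setting. All 191796 deposited RPKM values equalled counts per length and TMM-scaled library total within a relative tolerance of 1e-06. No per-sample column was left unused (0).

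Genes were filtered with filterByExpr (minimum count 10, minimum total 15), scaled by TMM and tested with edgeR 4.0.16 (glmQLFit, glmQLFTest) in R 4.3.3 on group alone, with Benjamini-Hochberg adjustment over 18486 genes. The SE is the log2 fold change divided by the root of the F statistic. Fold changes are knockdown over control. On simulated counts for 18268 genes with 200 changed, 71% of those changed 1.5-fold and 97% of those changed 2-fold were recovered, with 6.7% of calls false. In the data 3128 genes were called lower and 2898 higher, a far larger share. The simulated rates therefore check the code and do not give the rates of this contrast. Alternatives used DESeq2 1.42.0 and limma 3.58.1. Positions, coding lengths and overlaps came from GENCODE release 29, matched for 31848 genes by identifier. Promoters came from RefSeq, GRCh38.p14, and SNRPD1, SF3B3, LSM6, PRPF3 and SART3 had no entry.

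The members, the lists and the tests were chosen with earlier results of these data known. Values in every library are given for the 10 called members with the largest change, the 3 with the smallest, SF3B1, U2AF1, PRPF8 and the leading gene of each role, and up to 3 called genes are named per list. SNRPD2, and the calls that depend on single libraries, were named after their values were seen, as were CHERP, CWC15, TXNL4B, ZCRB1, DDX39B and SMN2.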

Additional observations from a re-analysis of the deposited data

How the results depend on the processing

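The count of 31 members lower was 24 to 36 over 16 other settings. The 24 without knockdown replicate 3 stood beside 1836 of 18755 genes, and the 36 without control replicate 2 beside 3624 of 18829. Of the 31 calls, 24 were kept in every setting that tested them, and 0 directions of called members reversed. Members higher, 0 by edgeR with TMM, are given with the count of all genes higher in the same setting. They numbered 1 with RLE scaling (3008 of 18486), 3 with upper-quartile scaling (3572 of 18486) and 2 with DESeq2 (2813 of 19570). Without a filter there was 1 (3206 of 31966). With at least 10 CPM in 3 libraries there were 3 of 46 members tested (1598 of 7332). A GC correction per library gave 3 (4767 of 18486). Leaving out control replicate 2 and knockdown replicate 1 together gave 1 (3787 of 18647). This last pair of settings was added after the data were seen. Leaving out each library gave 0 to 1, beside counts from 1834 of 18724 to 3285 of 18829 genes. The median log2 fold change of members, -0.455, was -0.391 with upper-quartile scaling, -0.4084 with the stricter filter, -0.3124 on log2(RPKM + 1), -0.3873 with the GC correction, -0.42 without those 2 libraries, and -0.464 to -0.4088 with each library left out. Upper-quartile scaling moved the median of all genes to 0.06 and the share of calls that were higher to 58.6%, against 48.1%. Same-numbered libraries did not pair (correlations -0.284, -0.198 and 0.0449), and with the replicate block 27 members were lower and 0 higher, and 1958 and 1816 of all genes, against 3128 and 2898. Of all tested genes, 1836 of 18755 were lower without knockdown replicate 3. Without knockdown replicate 2, 2064 were lower and 1834 higher of 18724. Without control replicate 3, 1895 of 18772 were higher, and with the GC correction 4767 of 18486 were higher. The stricter filter tested only 7332 genes, of which 1803 were lower and 1598 higher. Those counts do not compare directly with 3128 and 2898 of 18486. The causes were not tested. The labels give no batch.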
